A study of Mus musculus with 9 samples.

Results

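The 8 lysosomal genes Ctsa, Ctsb, Ctsd, Ctsl, Lamp1, Lamp2, Hexa and Grn were followed in SOD1-mutant motor neurons, wild-type motor neurons and wild-type spinal cord. They were read by every probe set that the array's platform annotation gives to 1 of these symbols alone, 19 of 45101 probe sets in all and 8 of 18194 genes so named, and no probe set naming several genes held any of them. The 9 arrays, Affymetrix whole-genome mouse arrays on which each transcript is read by sets of short probes, fell into 3 groups of 3. Motor neurons lifted from tissue sections by laser capture microdissection gave 3 arrays from SOD1-mutant mice and 3 from wild-type mice, and total spinal cord gave 3 arrays from wild-type mice. SOD1 encodes a cytosolic superoxide dismutase, and mutant forms of it underlie familial amyotrophic lateral sclerosis, in which motor neurons are lost. The labels name no SOD1 allele and do not say how the neurons were recognised or whether arrays share an animal. No strain is given, and as the code D28 in all titles has no explanation, neither age nor stage of disease is known here. The source field reads ventral spinal cord for all 9 arrays, whereas the descriptions speak of total cord. The p-values below thus rest on how far arrays of a group differ, which can include technical differences, and precision is limited by having 3 arrays in a group.

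Lysosomes are the acid compartment in which a cell breaks down material delivered by endocytosis and autophagy. Soluble hydrolases such as the cathepsins and hexosaminidases do the cutting, most of them sorted from the Golgi by a mannose 6-phosphate tag, while heavily glycosylated membrane proteins such as LAMP1 and LAMP2 line the inner face of the membrane. Many of the genes share a promoter element with the core CACGTG, which is bound by transcription factors of the TFEB family. Neurons do not divide and so cannot dilute undegraded material, microglia are rich in lysosomes, and inherited loss of several of the genes causes neurodegeneration in humans.

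Promoter windows, from 250 bases before to 50 after a start site, were matched by symbol in RefSeq on GRCm38.p6 for 7 of the 8 genes (8 windows, as Ctsa has 2 start sites). Ctsb had no entry. The stretches below are shown because they hold the core upstream of the start in Lamp1, Ctsd and Ctsa. Each is the gene's own strand, 5′ to 3′, with CACGTG in capitals. The core is its own reverse complement, so a search of 1 strand covers both, and the 8-letter form GTCACGTG, or CACGTGAC on the other strand, overlaps it by construction. The Lamp1 stretch is chr8:13159081-13159160, plus strand. The Ctsd stretch is chr7:142387878-142387957, minus strand. The Ctsa stretch, before the second start site, is chr2:164833693-164833772, plus strand.
Lamp1: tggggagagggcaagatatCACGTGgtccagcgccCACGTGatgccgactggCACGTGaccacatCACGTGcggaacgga
Ctsd: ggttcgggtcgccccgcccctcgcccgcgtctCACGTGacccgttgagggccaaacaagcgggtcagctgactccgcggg
Ctsa: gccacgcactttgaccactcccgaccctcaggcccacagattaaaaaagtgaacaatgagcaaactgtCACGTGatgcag

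The core occurred 4 times upstream of the Lamp1 start and 2 times upstream of the Ctsd start. It occurred once before and once after the second Ctsa start, and once upstream of the Ctsl start. The windows of Lamp2, Hexa and Grn and the first window of Ctsa held none of these letters. With any window counted, 4 of 7 genes (57.1%) held the core. Among other lysosomal genes, listed by role further on, 26 of 95 (27.4%) held it, and among all genes with a window 2187 of 27025 (8.09%) did. The 8-letter form was in 3 of the 7 genes, in 20 of the 95 other lysosomal genes (21.1%) and in 2.55% of all genes. These matches describe the letters only, and nothing on these arrays measured binding.

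All arrays had been scaled by the authors to a trimmed mean of 2500, but the median signal lay between 274 and 366 on SOD1-mutant motor neuron arrays, 269 and 313 on wild-type motor neuron arrays and 556 and 582 on cord arrays. The Gapdh control transcript is read at both ends, and its 3′ over 5′ signal, as a log2 ratio, was 4.49 ± 0.15 in SOD1-mutant motor neurons, 4.03 ± 0.44 in wild-type motor neurons and -0.28 ± 0.01 in cord (SD, n = 3 each). Where along a transcript each lysosomal probe set lies is not in the tables used here. Of 11 motor neuron markers tested, 9 were higher in wild-type motor neurons than in cord and none was lower.

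The signal of all 19 probe sets was next set out by gene. A signal is a linear intensity that depends on the probes, so it was compared between arrays and not between genes.

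**Figure D1:**
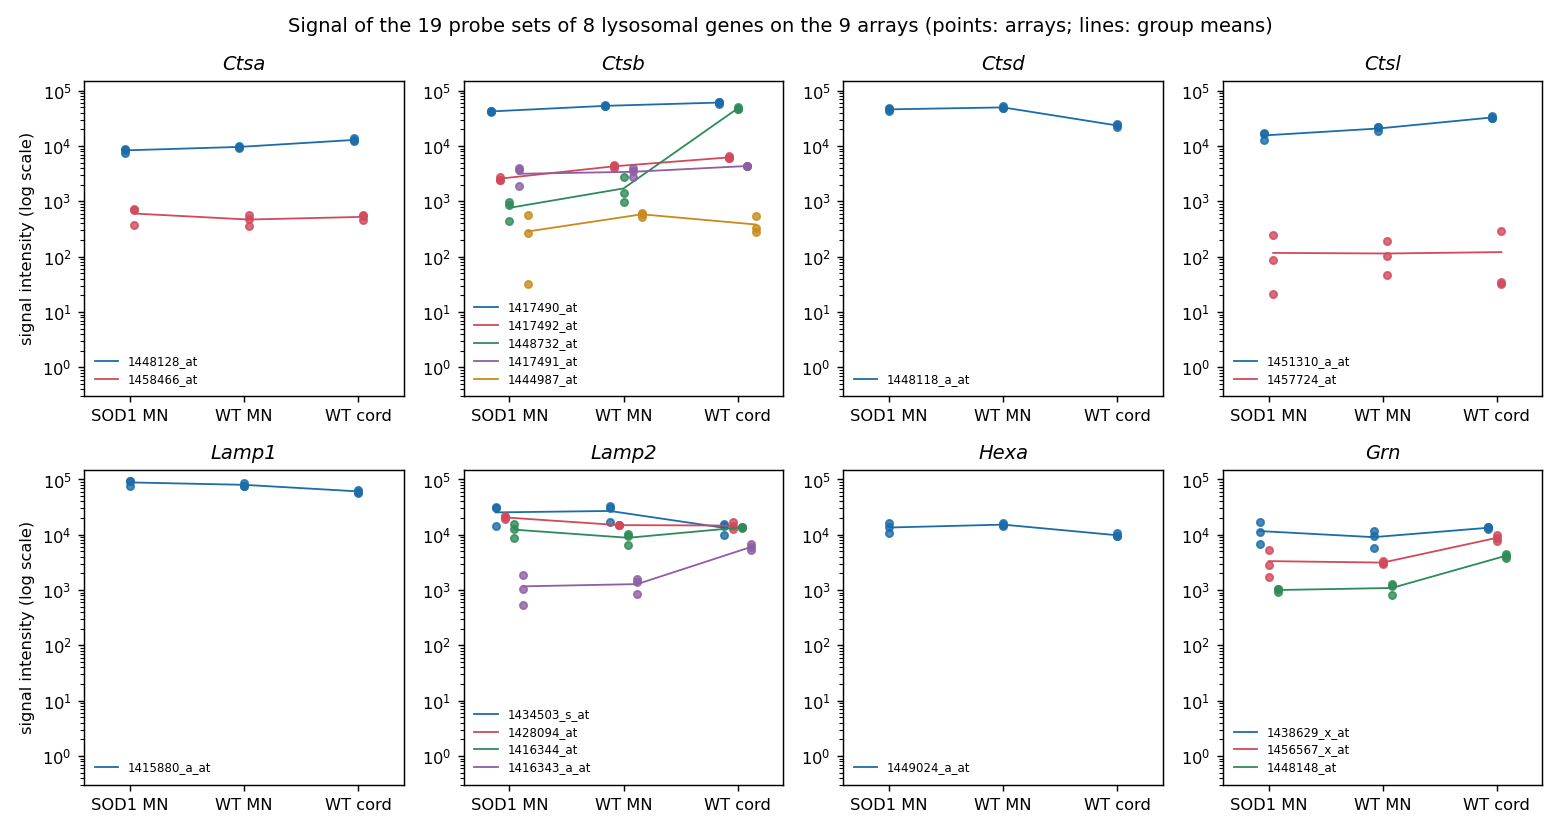
Signal intensity (log scale) of the 19 probe sets of 8 lysosomal genes, 1 panel per gene, with SOD1-mutant motor neurons, wild-type motor neurons and wild-type cord from left to right. Points are single arrays, lines join group means, and colours are probe sets; the Ctsb probe set 1448732_at averages 765 in SOD1-mutant motor neurons, 1715 in wild-type ones and 47918 in cord, while the brightest Ctsb probe set stays within 41691 to 63227 on all arrays.

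Wild-type motor neurons against wild-type cord asks which transcripts the captured cells hold relative to the tissue around them. All motor neuron arrays were laser-captured and no cord array is described so, and cell content and sample preparation cannot be told apart here. Read by the brightest probe set of each gene, 4 of the 8 genes were higher in motor neurons (Ctsd, Lamp2, Hexa and Lamp1) and 4 were lower (Ctsl, Grn, Ctsa and Ctsb). Over all genes tested on the array, 31.1% were higher and 36.1% lower by the same reading. Among the 18 probe sets that passed the filter on dim signal, 4 were higher, 10 lower and 4 not called (limma, Benjamini-Hochberg adjusted p under 0.05 over 27022 probe sets), against 24.0% higher and 41.5% lower (65.5% in all) over the array. The groups did not overlap for 4 probe sets that were higher and 11 that were lower, against 26.4% and 45.4% over the array, so the shares of the lysosomal probe sets lay near or somewhat above those of the whole array. The median log2 change of the 18 was -0.39, against -0.35 for all probe sets tested. Centring each array on its median gave 8 higher and 4 lower, against 11695 and 6248 of all 27022 probe sets. It moved the median of all probe sets to 0.38. Quantile normalization gave 5 higher and 10 lower, against 9656 and 7685 of all, and moved that median to 0.13. Over the whole array, 36.7% of the calls were higher with the authors' scaling, 65.2% after centring and 55.7% after quantile normalization. In a bulk sample, fewer cells of a type and less RNA per cell cannot be told apart.

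Ctsd, the aspartic protease cathepsin D, which humans lose in a congenital neuronal ceroid lipofuscinosis, had the largest rise among the 18 tested probe sets at the authors' scaling. Its signal was 52995, 48379 and 48773 in wild-type motor neurons, against 24577, 22332 and 23726 in cord. All 3 motor neuron arrays lay well above all 3 cord arrays. The rise was 2.12-fold, a log2 fold change of 1.09 ± 0.07 (SE, limma adjusted p = 3.60e-06), and it ranged from 0.63 to 1.81 over 17 alternatives, past the threshold in each.

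Hexa, the alpha subunit of the hexosaminidase that degrades GM2 ganglioside and is lost in Tay-Sachs disease, had a signal of 15272, 14403 and 16117 in wild-type motor neurons, against 10656, 9359 and 9398 in cord. The groups did not overlap, and the log2 fold change was 0.64 ± 0.09 (SE, limma adjusted p = 0.000282), past the threshold in all 17 alternatives.

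Lamp1, one of the 2 abundant glycoproteins of the lysosomal membrane, had a signal of 77443, 77790.1 and 84809 in wild-type motor neurons, against 58879.9, 65739 and 58089 in cord. Every motor neuron array was above every cord array. The log2 fold change was 0.39 ± 0.08 (SE, limma adjusted p = 0.00166), but quantile normalization turned it to -0.14 (adjusted p = 0.0743), so its direction depended on the scaling.

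Lamp2, the other one, whose splice forms include the receptor of chaperone-mediated autophagy and which is lost in Danon disease, gave different answers at different probe sets. The brightest, 1434503_s_at, had 16939.5, 33402 and 30523 in wild-type motor neurons, against 14553, 10014 and 15521 in cord. The groups did not overlap, although the first motor neuron array lay close to the cord arrays. Its log2 fold change was 0.98 ± 0.26 (SE, limma adjusted p = 0.00932). Probe set 1416343_a_at ran the other way, with 1586, 852 and 1411 in wild-type motor neurons, against 6068, 5386 and 6675 in cord. All motor neuron arrays were far below all cord arrays there (log2 fold change -2.26 ± 0.22, SE, limma adjusted p = 3.23e-05). A middle value came from 1416344_at (-0.66 ± 0.16, limma adjusted p = 0.00631), which turned to 0.067 after centring. The remaining probe set, 1428094_at, was not called (0.04, 95% interval -0.22 to 0.29, adjusted p = 0.799), rose to 0.76 after centring (adjusted p = 0.000240) and turned to -0.20 after quantile normalization (adjusted p = 0.172). The rise at 1434503_s_at and the fall at 1416343_a_at kept their direction and call in all 17 alternatives. Which splice forms these probe sets read is not in the tables used here, and the s in the first name is the array maker's mark for probes shared by several transcripts.

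Ctsb, the cysteine protease cathepsin B, was the gene whose own probe sets differed most among the 4 read by more than 1 tested probe set. The brightest, 1417490_at, had 52588, 54257 and 53309 in wild-type motor neurons, against 62614, 63227 and 57854 in cord. They did not overlap but lay close together. The log2 fold change of -0.20 ± 0.07 (SE, limma adjusted p = 0.0270) turned to 0.53 after centring (adjusted p = 0.000245). Its call was lost in 6 other alternatives (adjusted p = 0.0538 to 0.140), among them leaving out motor neuron array 3, cord array 1 or cord array 2.

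Probe set 1448732_at of the same gene had 2742, 978 and 1424 in wild-type motor neurons, against 46324, 51291 and 46138 in cord. Every motor neuron array stood more than an order of magnitude below every cord array. The fall was 30.2-fold (log2 fold change -4.92 ± 0.31, SE, limma adjusted p = 2.19e-06) and lay at percentile 0.85 of the changes of all probe sets tested. Probe set 1417492_at, with 4627, 3995 and 4328 in wild-type motor neurons, against 6027, 6681 and 5993 in cord, was lower by the authors' scaling (-0.53 ± 0.11, limma adjusted p = 0.00211) and was 0.19 after centring. The other Ctsb probe sets were not called, 1417491_at with -0.36 (95% interval -0.70 to -0.03) and 1444987_at with 0.64 (-0.09 to 1.36). Both depended on the settings: 1417491_at turned to 0.36 after centring, and 1444987_at was called higher after centring (1.36) and after quantile normalization (1.49). Leaving out motor neuron array 2 made 1417491_at lower (-0.48, adjusted p = 0.00991), and leaving out cord array 2 made 1444987_at higher (0.90, adjusted p = 0.0441).

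The disagreement between probe sets was then set beside that of other genes. The 5 probe sets of Ctsb spanned 5.56 log2 units in this comparison, a span above that of 96.4% of the 1015 genes with 4 or more tested probe sets, whose median span was 2.41. The 4 of Lamp2 spanned 3.24 (69.8%). Among those 1015 genes, 46.3% had calls in both directions, as Lamp2 did. Within each array, where the authors' scaling factor cancels, the log2 ratio of Ctsb 1417490_at to 1448732_at was 4.26 to 5.79 on the motor neuron arrays and 0.30 to 0.43 on the cord arrays. That of Lamp2 1434503_s_at to 1416343_a_at was 3.42 to 5.29 on the motor neuron arrays and 0.89 to 1.26 on the cord arrays. The groups did not overlap for either ratio. These pairs were picked for their unlike changes after the values were seen, so the ratios are a description with no test. The Gapdh 3′ to 5′ log2 ratio was higher by 4.31 in wild-type motor neurons than in cord and the Actb ratio by 3.87 (exact permutation test over arrays, two-sided, p = 0.1 for each, the smallest that 3 arrays against 3 allow). The part of these 3′ to 5′ differences in the probe set differences was not tested.

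**Figure D2:**
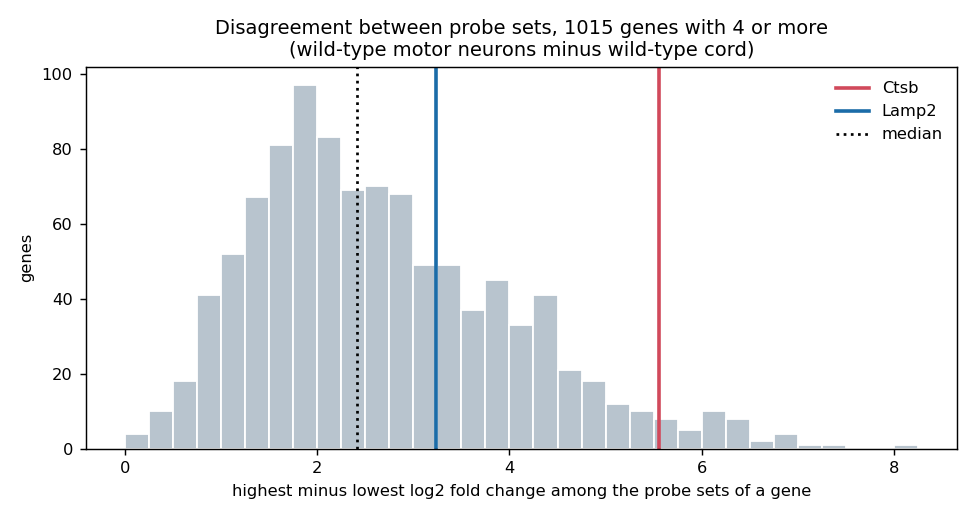
Number of genes (vertical axis) by the gap in log2 units between the highest and the lowest log2 fold change of their probe sets, wild-type motor neurons minus wild-type cord, for the 1015 genes with 4 or more tested probe sets. Ctsb, at 5.56, lies far to the right of the median of 2.41, and Lamp2 lies at 3.24.

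Ctsl, the cysteine protease cathepsin L, had 21875, 18620.3 and 21822 in wild-type motor neurons, against 34629, 32646 and 31589 in cord. All motor neuron arrays were lower, by a log2 fold change of -0.67 ± 0.09 (SE, limma adjusted p = 0.000176), which became 0.056 after centring (adjusted p = 0.597). A dim second probe set of Ctsl, 1457724_at, did not pass the filter and lay between 20.8 and 296 on all 9 arrays.

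Ctsa, the carboxypeptidase cathepsin A, which protects neuraminidase and beta-galactosidase in a complex with them, had 10071, 9612 and 9295 in wild-type motor neurons, against 13789, 12222 and 12675 in cord. The groups did not overlap, with a log2 fold change of -0.42 ± 0.09 (SE, limma adjusted p = 0.00258) that turned to 0.31 after centring (adjusted p = 0.0119). Its dim probe set 1458466_at was not called (-0.17, 95% interval -0.83 to 0.48) and turned to 0.75 after quantile normalization (adjusted p = 0.0316). Of the partners of Ctsa, the neuraminidase gene Neu1 was lower at its brightest probe set (-1.06 ± 0.13, SE, limma adjusted p = 0.000143), higher at its other one, and not called after centring (-0.34, adjusted p = 0.0542). The beta-galactosidase gene Glb1 was not called (-0.05, adjusted p = 0.797) but was higher after centring (0.67) and after quantile normalization (0.43).

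Grn encodes progranulin, a secreted glycoprotein that is cut into granulins inside lysosomes, and loss of 1 copy causes frontotemporal dementia in humans. Its brightest probe set, 1438629_x_at, had 5804, 11938 and 9426 in wild-type motor neurons, against 13711, 12795 and 13588 in cord. The motor neuron arrays were spread widely and all lay below the cord arrays. The log2 fold change of -0.62 ± 0.22 (SE, limma adjusted p = 0.0361) turned to 0.10 after centring. Its call was lost in 6 other alternatives (adjusted p = 0.0694 to 0.100), among them leaving out motor neuron array 3 or any single cord array. The x in this name is the array maker's mark for probes that can match other sequences, so this signal may not be Grn alone. The other Grn probe sets were lower in every alternative, 1456567_x_at by -1.47 ± 0.13 and 1448148_at by -1.94 ± 0.19 on the log2 scale (SE, limma adjusted p = 1.23e-05 and 2.97e-05). Of these, 1456567_x_at bears the same x mark, so its signal may not be Grn alone either. At 1448148_at the signal was 1268, 1199 and 808 in wild-type motor neurons, against 4514, 3851 and 4172 in cord. Of the genes known to act with progranulin, the sorting receptor gene Sort1 (-0.54) and Tmem106b, a lysosomal membrane protein gene (-0.62), were lower but turned to 0.19 and 0.10 after centring. The prosaposin gene Psap was not called (0.15, adjusted p = 0.301), was higher after centring (0.87) and was lower after quantile normalization (-0.38).

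Median centring moved all members by the same amount, so each gene was also set against Ctsd within the same array. This is a description with no test, since Ctsd was picked for its rise after the values were seen. Between wild-type motor neuron arrays and cord arrays, the log2 ratio of Ctsd to Ctsl differed by 1.76, that of Ctsd to Grn by 1.71, that of Ctsd to Ctsa by 1.50 and that of Ctsd to Ctsb by 1.28. It differed by 0.69 for Lamp1 and 0.45 for Hexa. For these 6 ratios the motor neuron arrays all lay above the cord arrays, and a single factor per array cannot change that. The ratio of Ctsd to Lamp2 differed by 0.11, with overlapping groups. Quantile normalization is not a single factor per array and moved the members by unlike amounts. With it the log2 change was 0.63 for Ctsd, 0.68 for Lamp2, 0.48 for Hexa and -0.14 for Lamp1.

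Other lysosomal genes were then described by role in the same comparison. The cathepsins and related lysosomal proteases beyond the 4 above had 9 of 10 tested genes lower and 1 higher, with a median log2 change of -1.88 against -0.10 for all genes. The largest falls were those of Ctsc, a dipeptidyl peptidase of immune cells (-5.35 ± 0.46, above background on 1 of 3 wild-type motor neuron arrays), Ctsh (-3.91 ± 0.28), Ctsk, the collagenase of osteoclasts (-2.71 ± 0.18), and Ctss, a protease of microglia and other antigen-presenting cells (-2.28 ± 0.09), all SE with a limma adjusted p of at most 1.38e-05. Lgmn, which encodes the asparaginyl endopeptidase legumain, was the 1 gene that rose (0.63, adjusted p = 0.000930), and its call did not hold after quantile normalization, where the list had none higher and 8 lower. After centring the list had 1 higher and 7 lower, where 53.2% of all genes were higher and 18.7% lower.

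Markers of microglia fell beside these proteases. All 15 tested were lower, with a median log2 change of -3.19. Their summed signal over 17 genes was 6527 to 7582 in wild-type motor neurons, against 68509 to 79310 in cord. In wild-type motor neurons 4 of the 17 lay below background on every array, including Aif1 and C1qc, and none was listed at 0. Astrocyte markers (12 of 12 lower), oligodendrocyte markers (11 of 11) and vascular markers (11 of 11) also fell at the authors' scaling. After centring 11, 9 and 10 of them were lower, and 1 oligodendrocyte marker, Mbp, was higher (0.40). Summed oligodendrocyte marker signal was 292945 to 318051 in wild-type motor neurons, against 754059 to 881379 in cord, so the captured arrays kept much of this sum. Bright markers such as Mbp (-0.32) and Cnp (-0.75) weigh most in it. Other markers fell much further, among them Mag (-3.55), Fa2h (-4.04) and Gjb1 (-6.66, below background on every wild-type motor neuron array). The part of these cell types in the lysosomal values was not tested.

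Cystatins, which inhibit cysteine cathepsins, differed among themselves. Cst3, the secreted cystatin C, was lower (-1.21), while the cytosolic Cstb (1.48) and the secreted Cst6 (1.61) were higher, all with a limma adjusted p of at most 7.55e-05. For Cstb a second probe set was called lower, so its direction depended on the probe set.

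Of 31 genes tested from the list of other soluble hydrolases, 9 were higher and 11 lower, with a median log2 change of -0.02. The list also holds Sumf1 and the acetyltransferase gene Hgsnat (0.79, higher), which are not hydrolases themselves. The largest rises were those of Sumf1, which activates lysosomal sulfatases (2.22), Plbd2 (1.85) and Scpep1 (1.63), a serine carboxypeptidase whose second probe set was called lower. The largest fall was that of Pla2g15, the lysosomal phospholipase (-2.48 ± 0.55, SE, above background on 2 of 3 wild-type motor neuron arrays). The arylsulfatase gene Arsa fell by 1.54 on the log2 scale. After centring, 18 were higher and 4 lower, and after quantile normalization 13 were higher and 9 lower. Of all genes, 31.1% were higher and 36.1% lower at the authors' scaling, 53.2% and 18.7% after centring, and 42.2% and 26.1% after quantile normalization. The counts of this list thus moved with those of the whole array. Among the activators, Gm2a, which presents GM2 ganglioside to the enzyme of Hexa, was lower (-1.72 ± 0.10, SE, limma adjusted p = 1.40e-06). Npc2, the luminal cholesterol carrier, was higher (0.34) at its brightest probe set, lower at its other ones, and -0.14 after quantile normalization. Hexa and Gm2a thus differed in direction, and both calls held with all 3 scalings.

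Among 28 other lysosomal membrane proteins, 7 were higher and 14 lower (31.1% and 36.1% of all genes), with a median log2 change of -0.57. Ostm1, a subunit of the lysosomal chloride transporter, was the highest (1.86), and Laptm4b also rose (1.39). The lowest were Laptm5 (-2.32), a gene of blood and immune cells that is also on the microglia list, and Tpcn1 (-2.31), a cation channel. Scarb2, the receptor that carries glucocerebrosidase to the lysosome, was lower (-0.79) but was not called after centring (-0.07). Centring made the split 13 higher and 7 lower (53.2% and 18.7% of all genes). With quantile normalization it was 10 higher and 12 lower (42.2% and 26.1% of all genes).

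Of 18 genes of sorting to the lysosome, 10 were higher and 4 lower, with a median log2 change of 0.28, where 31.1% of all genes were higher and 36.1% lower. After centring 14 were higher and 2 lower (53.2% and 18.7% of all genes), and after quantile normalization 8 were higher and 3 lower (42.2% and 26.1% of all genes). Sorl1, a sorting receptor, was the highest (1.61), and Gnptg and Gnptab, subunits of the enzyme that makes the mannose 6-phosphate tag, were the lowest (-3.04 and -1.40). Regulators had 7 higher and 4 lower of 15. Centring made this 11 and 1, and quantile normalization made it 9 and 2. Lamtor5 (1.52) and Lamtor3 (1.43), members of the complex that anchors mTORC1 to lysosomes, were higher, as was Mtor (1.06). Tfeb itself was lower (-1.26 ± 0.29, SE, limma adjusted p = 0.00471), a call lost after centring (-0.53) and after quantile normalization (-0.37). Tfe3 of the same family was not called (-0.04, adjusted p = 0.825) and was higher after centring (0.68).

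**Figure D3:**
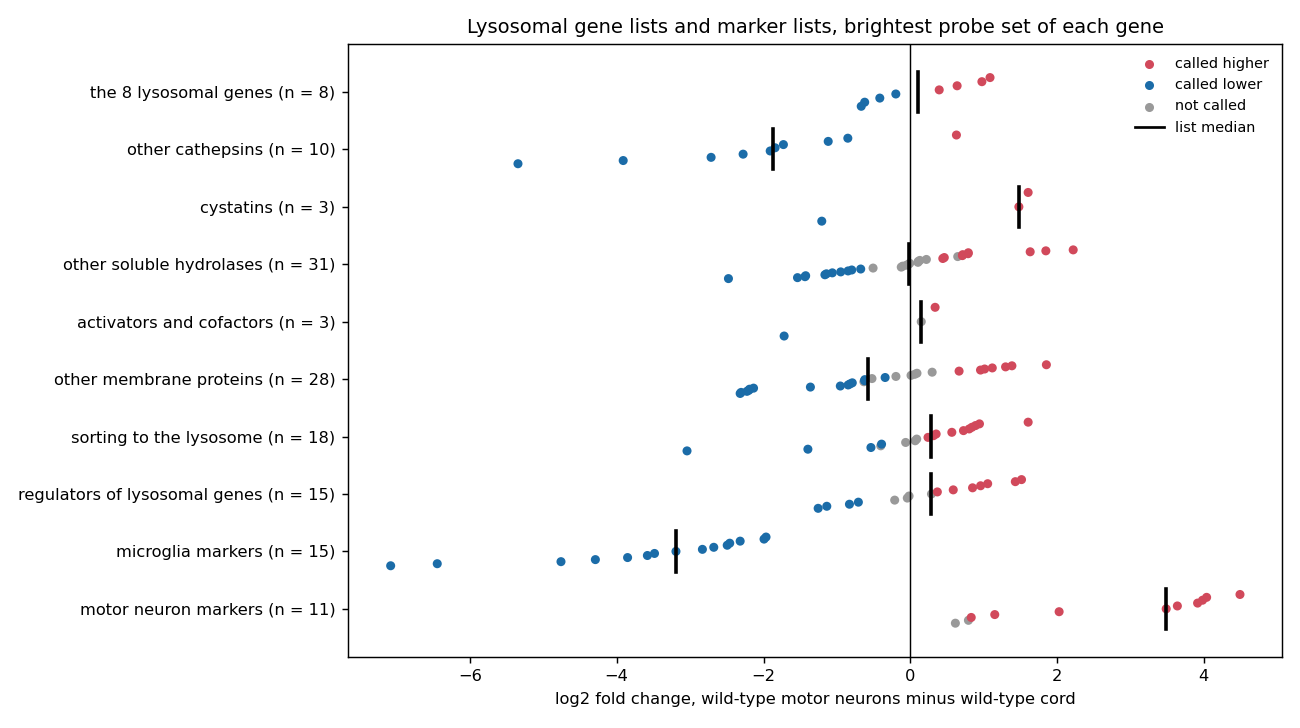
Log2 fold change (horizontal axis), wild-type motor neurons minus wild-type cord, of each tested gene in lysosomal lists and 2 marker lists, read by its brightest probe set at the authors' scaling, with calls in red (higher), blue (lower) or grey (none) and list medians as bars. The 8 lysosomal genes lie between -0.67 and 1.09, the other cathepsins mostly lie between -5.35 and -0.85, and the microglia markers are all lower. The splits of the hydrolase and membrane lists move toward higher after median centring, as does that of all genes.

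Other lysosomal genes with a tested probe set were also split by the presence of CACGTG in the promoter window. The 25 with the core had 10 higher and 8 lower (median log2 change 0.09), and the 64 without it had 18 higher and 29 lower (median -0.37). All genes had 31.1% higher and 36.1% lower, with a median of -0.10. After centring the medians were 0.81 with the core, 0.35 without it and 0.63 for all genes, and after quantile normalization they were 0.43, 0.02 and 0.26. The sign of the median without the core thus depended on the scaling, and no test was run on this split. The 8 genes were read here by brightest probe set at the authors' scaling. Ctsd and Lamp1 hold the core and were higher, and Ctsa and Ctsl hold it and were lower. Lamp2 and Hexa lack it in the window and were higher, and Grn lacks it and was lower. Other Lamp2 probe sets were called lower, and the directions of Lamp1, Ctsa, Ctsl and the brightest Grn probe set turned with the scaling.

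SOD1-mutant against wild-type motor neurons asks which transcripts differ by genotype in the captured cells. No lysosomal probe set was called among the 18 tested, where 0.152% of probe sets over the array were called higher and 0.0703% lower (60 of 27022, or 0.222%, limma). By brightest probe set, 0.169% of all genes were called higher and 0.0847% lower, and none of the 8. At an unadjusted p under 0.05 there were 5 of 18 (27.8%), against 4117 of 27022 (15.2%). The 2 groups did not overlap for 7 probe sets, 1 higher and 6 lower, against 10.5% higher and 11.7% lower over the array. Signal was lower on average for 13 of the 18, and their median log2 change was -0.15, against -0.01 for all probe sets tested.

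Ctsb had the most of these differences. Its brightest probe set had 43038, 41691 and 42254 in SOD1-mutant motor neurons, against 52588, 54257 and 53309 in wild-type motor neurons. All mutant arrays were below all wild-type ones. The log2 fold change was -0.33 ± 0.11 (SE, 95% interval -0.57 to -0.10), which missed the threshold (limma adjusted p = 0.189, unadjusted p = 0.0103).

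At 1417492_at the signal was 2486, 2444 and 2813 in SOD1-mutant motor neurons, against 4627, 3995 and 4328 in wild-type motor neurons. These groups were also apart (log2 fold change -0.74 ± 0.17, 95% interval -1.12 to -0.35, limma adjusted p = 0.116, unadjusted p = 0.00152). Probe set 1448732_at had 974, 451 and 869 in SOD1-mutant motor neurons, against 2742, 978 and 1424 in wild-type motor neurons, a narrow separation (-1.09 ± 0.41, limma adjusted p = 0.248). The other Ctsb probe sets overlapped between genotypes, 1417491_at with -0.18 (95% interval -0.80 to 0.45) and 1444987_at with -1.55 (-3.17 to 0.07). With all 9 arrays in 1 fit, 1417490_at and 1417492_at were called lower (limma adjusted p = 0.0445 and 0.0156), in a setting that called 1184 probe sets over the array. With array weights, 4 Ctsb probe sets and Ctsl were called lower and Lamp2 1428094_at higher, in a setting that called 5252.

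Ctsl had 12733, 17302 and 16726 in SOD1-mutant motor neurons, against 21875, 18620.3 and 21822 in wild-type motor neurons. They did not overlap, and the change was not called (log2 fold change -0.42 ± 0.16, 95% interval -0.77 to -0.08, limma adjusted p = 0.241). Ctsa had 7410.4, 9040.1 and 8653 in SOD1-mutant motor neurons, against 10071, 9612 and 9295 in wild-type motor neurons (-0.21, 95% interval -0.54 to 0.11). Ctsd had 43847, 46318 and 48173 in SOD1-mutant motor neurons, against 52995, 48379 and 48773 in wild-type motor neurons (-0.12, 95% interval -0.37 to 0.13). In both genes the mutant arrays were all lower, by small margins.

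Lamp2 ran upward at 1 probe set. At 1428094_at the signal was 21831, 21018 and 19009 in SOD1-mutant motor neurons, against 15192, 14864 and 14768 in wild-type motor neurons. All mutant arrays were above all wild-type ones (log2 fold change 0.46 ± 0.13, 95% interval 0.18 to 0.74, limma adjusted p = 0.146, unadjusted p = 0.00412). The brightest Lamp2 probe set, with 31758, 14387 and 30055 in SOD1-mutant motor neurons, against 16939.5, 33402 and 30523 in wild-type motor neurons, had 1 low array in each group and no difference beyond their spread (-0.11, 95% interval -0.81 to 0.59). At 1416344_at the change was 0.48 ± 0.23 (SE, limma adjusted p = 0.358) and at 1416343_a_at -0.26 (-1.19 to 0.67).

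For Lamp1, the signal was 75868, 95106 and 94492 in SOD1-mutant motor neurons, against 77443, 77790.1 and 84809 in wild-type motor neurons, a log2 fold change of 0.14 (95% interval -0.13 to 0.41). For Hexa it was 10664, 16038 and 13896 in SOD1-mutant motor neurons, against 15272, 14403 and 16117 in wild-type motor neurons (-0.19, 95% interval -0.56 to 0.18). For Grn 1438629_x_at it was 6677, 17024 and 11330.0 in SOD1-mutant motor neurons, against 5804, 11938 and 9426 in wild-type motor neurons (0.33, 95% interval -0.41 to 1.06). The groups overlapped in these 3 genes, and in Grn the first array of either genotype was its lowest. The remaining Grn probe sets had -0.06 (-0.81 to 0.68) and -0.10 (-0.68 to 0.49), and the dim Ctsa probe set had 0.31 (-0.53 to 1.15).

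None of the other lysosomal genes tested, 108 in 7 lists, was called between the genotypes. Their list medians lay between -0.31 for the cystatins and 0.18 for the other cathepsins, against -0.01 for all genes. The 2 largest changes of the 108 ran in opposite directions, Ctsc with 2.45 ± 0.64 (SE, limma adjusted p = 0.136) and Tfeb with -1.49 ± 0.47 (limma adjusted p = 0.185). Ctsc was above background on 3 SOD1-mutant motor neuron arrays and on 1 wild-type one, and Tfeb on 2 SOD1-mutant and 3 wild-type ones. The smallest adjusted p was that of Lgmn (-0.70, limma adjusted p = 0.109). Summed microglia marker signal was 6767 to 11403 in SOD1-mutant motor neurons, against 6527 to 7582 in wild-type motor neurons, with none of 15 markers called. Summed astrocyte marker signal was 148052 to 151930 in SOD1-mutant motor neurons, against 99080 to 115706 in wild-type motor neurons, with Gja1, an astrocyte connexin, called higher (1.25, limma adjusted p = 0.0170). Summed oligodendrocyte marker signal also did not overlap between genotypes, with 348696 to 362743 in SOD1-mutant motor neurons, against 292945 to 318051 in wild-type motor neurons. Summed vascular and meningeal marker signal overlapped, with 11300.5 to 12416 in SOD1-mutant motor neurons, against 7737 to 12299 in wild-type motor neurons. The median log2 change was 0.26 for microglia, 0.89 for astrocyte, 0.15 for oligodendrocyte and 0.60 for vascular and meningeal markers, and none of the oligodendrocyte and vascular markers was called. The Gapdh 3′ to 5′ ratio differed by 0.46 between these groups (exact p = 0.2) and the Actb ratio by 0.75 (exact p = 0.2). The part of these differences in the Ctsb, Ctsl and Lamp2 values was not tested.

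SOD1-mutant motor neurons against wild-type cord differ in tissue, laser capture and genotype, and this comparison shares its cord arrays with that of the wild-type motor neurons. Of the 18 probe sets, 5 were higher and 8 lower, against 21.9% and 40.2% (62.1% in all) over the array, and the median log2 change was -0.53, against -0.37 for all probe sets. The groups did not overlap for 4 that were higher and 9 that were lower, against 25.1% and 44.9% over the array. By brightest probe set, 4 genes were higher and 3 lower, against 28.4% and 35.3% of all genes. Centring gave 7 higher and 4 lower, against 11236 and 5888 of all 27022 probe sets, and moved the median of all to 0.39. Quantile normalization gave 2 higher and 8 lower, against 9012 and 7358 of all. Ctsd was higher with all 3 scalings (log2 fold change 0.97 ± 0.09, SE, limma adjusted p = 4.77e-05, against 1.09 for wild-type motor neurons). Lamp1 was higher by 0.53 ± 0.12 but turned to -0.094 after quantile normalization. Lamp2 1428094_at was higher (0.50 ± 0.13, adjusted p = 0.0106) but was not called after quantile normalization (0.21, adjusted p = 0.207). Lamp2 1434503_s_at (0.87 ± 0.30, adjusted p = 0.0351) and Hexa (0.45 ± 0.16, adjusted p = 0.0357) were higher, near the threshold. Their calls were lost after quantile normalization (0.59 and 0.32) and on leaving out any of several arrays, though the changes stayed positive in all 17 alternatives. Lamp2 1434503_s_at lost its call without mutant array 1 or 3 or cord array 1 or 2 (adjusted p = 0.0570 to 0.135). Hexa lost it without mutant array 2 or 3 or any single cord array (adjusted p = 0.0545 to 0.109).

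Lower in SOD1-mutant motor neurons were Ctsb at 1448732_at (64.1-fold, log2 fold change -6.00 ± 0.26, limma adjusted p = 1.40e-06) and at 1417492_at (-1.27 ± 0.12), which held with all 3 scalings. Ctsb 1417490_at (-0.53) and Ctsa (-0.63) were lower but turned to 0.22 and 0.13 after centring. Ctsl was lower (-1.09 ± 0.13, adjusted p = 0.000167), missing the threshold only after centring (-0.34, adjusted p = 0.0546) among the alternatives. Lamp2 1416343_a_at (-2.52) and Grn 1448148_at (-2.04) were lower with all 3 scalings. Grn 1456567_x_at was lower (-1.54 ± 0.35, adjusted p = 0.00522) but was not called after centring (-0.78, adjusted p = 0.0736). The brightest Grn probe set was not called (-0.30, 95% interval -0.96 to 0.36) but was lower without mutant array 2 (-0.62, adjusted p = 0.0290). The uncalled values were -0.18 for Lamp2 1416344_at, -0.54 for Ctsb 1417491_at, -0.91 for Ctsb 1444987_at and 0.14 for the dim Ctsa probe set.

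The order of the groups can be read from these values. For 3 Ctsb probe sets (1417490_at, 1417492_at and 1448732_at) and the brightest of Ctsl and Ctsa, SOD1-mutant motor neurons were lowest and cord highest. Neighbouring groups did not overlap at the authors' scaling, although none of the genotype steps was called. Over the array, 45.4% of probe sets were lower without overlap in wild-type motor neurons against cord, and 11.7% in SOD1-mutant against wild-type motor neurons. The share with both steps was not counted. After centring, wild-type motor neurons were no longer below cord for Ctsb 1417490_at (0.53), Ctsb 1417492_at (0.19), Ctsl (0.056) and Ctsa (0.31). For these the order thus depended on the scaling. For Ctsd and Hexa, cord was lowest and the motor neuron groups were not called against each other. The genes whose pattern over the 9 arrays was most like each member were found by the root mean square difference of log2 values centred on their own mean, among 12982 genes. For Ctsd these were Lrpap1 (difference 0.05) and Tmsb10, and for Lamp1 they were Nefl and Gart. Ctsb was closest to Eef1d and Ergic3, Ctsl to Meis1 and Pisd, Ctsa to Vgll4 and S100b, and Hexa to Lamtor2 and Eya3. The values for Lamp2 (Zc3h13, 0.20, and Lrig1) and Grn (Tgfb1i1, 0.14, and Prrx1) were larger.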

How the data were processed

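The values were linear signal intensities per probe set, as deposited by the authors for 9 arrays. Which software made them is not stated in the labels. All arrays have a trimmed mean of 2500, with 2% taken off each end, so they had been scaled before deposit. Groups came from the sample descriptions. The 8 genes, the gene lists and the tests were chosen with earlier results of these data known.

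Before log2, a pseudocount of 20.3 was added, the 10th percentile over all arrays, which understates fold changes of dim probe sets. After 64 controls were left out, the 27022 probe sets above the 40th percentile of the mean of group means were tested, standing for 12983 genes. A gene was read by its probe set of highest mean. In the platform annotation 34945 probe sets name 1 gene, 932 name several and 9160 name none. Each comparison was fitted on its own 6 arrays with limma 3.58.1 in R 4.3.3 (intensity trend, two-sided, Benjamini-Hochberg). Background was the 95th percentile of 27 Bacillus subtilis control probe sets per array. The rule for named genes took all probe sets of the 8 genes, their known partners, up to 4 called genes with the largest change in each list and the 2 genes most alike in pattern. Lgmn, Ctsc and Tfeb between genotypes, and the ratios between lysosomal probe sets within an array were picked after their values were seen, and those ratios were not tested. In simulated arrays, 200 of 27022 probe sets were changed by 1 or 2 on the log2 scale, with the same spread in both groups. For wild-type motor neurons against cord, 34% of changes of 1 and 57% of changes of 2 were recovered. For SOD1-mutant against wild-type motor neurons these were 22% and 43%. On the real arrays 17700 probe sets were called against cord, far more than were changed here, so the simulated shares do not measure recovery in that comparison. Replicate numbers were checked for pairing. Alternatives covered scaling, filter, pseudocount, fit, background floor, and leaving out each array. Plots were made in Python 3.11.15 with matplotlib 3.10.9.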

Additional observations from a re-analysis of the deposited data

How the results depend on the processing

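Of the 17 alternatives, centring each array moved the median lysosomal change against cord most, to 0.34 for wild-type and 0.22 for SOD1-mutant motor neurons. Of 304 values per comparison (a probe set under a setting), 272 kept direction and side of the threshold for wild-type motor neurons against cord, 287 between genotypes and 273 for SOD1-mutant motor neurons against cord; the causes of the other changes were not tested. Centring on the median gave 8 higher and 4 lower for wild-type motor neurons against cord, with log2 changes of 0.31 and 0.55 for Ctsa 1448128_at and 1458466_at, 0.53, 0.19 and 0.36 for Ctsb 1417490_at, 1417492_at and 1417491_at, 0.056 for Ctsl, 0.067 for Lamp2 1416344_at and 0.10 for Grn 1438629_x_at. Quantile normalization gave 0.75 for Ctsa 1458466_at, -0.14 for Lamp1 and -0.20 for Lamp2 1428094_at. For SOD1-mutant motor neurons against cord, centring left 4 lower, with 0.13 for Ctsa, 0.22 and 0.22 for Ctsb 1417490_at and 1417491_at, 0.58 for Lamp2 1416344_at and 0.46 for Grn 1438629_x_at, while quantile normalization left 2 higher, with -0.094 for Lamp1, and a fit with no intensity trend left 3 higher. Between genotypes, the 60 calls over the array became 1184 with all 9 arrays in 1 fit (2 lysosomal probe sets lower), 3 with no intensity trend, 5252 with array weights (1 higher and 5 lower, with 0.031 for Ctsb 1417491_at and 0.10 for Grn 1448148_at), and 97 with values below background raised to it. Leaving out 1 array at a time gave 6 (without wild-type array 3) to 71 calls over the array between genotypes, 7 without mutant array 3, 11 and 13 without wild-type arrays 1 and 2, and none lysosomal; it gave 3 to 4 higher lysosomal probe sets for SOD1-mutant motor neurons against cord, where Ctsa 1458466_at ranged from -0.036 to 0.45 and Grn 1438629_x_at from -0.62 to 0.06, Lamp2 1416344_at from -0.36 to 0.042 and Ctsb 1444987_at from -1.65 to 0.073. For wild-type motor neurons against cord it gave -0.33 to 0.00612 for Ctsa 1458466_at and -0.075 to 0.15 for Lamp2 1428094_at. Between genotypes it gave -0.37 to 0.16 for Ctsb 1417491_at, -0.41 to 0.26 for Lamp2 1434503_s_at, -0.69 to 0.20 for Lamp2 1416343_a_at, -0.48 to 0.33 for Grn 1456567_x_at and -0.29 to 0.024 for Grn 1448148_at. Between genotypes, arrays with the same replicate number deviated together at r of 0.15, 0.17 and 0.00, and arrays with unlike numbers at r of -0.18 to 0.06. The labels name no pairing, so the main fit used none, and these values do not settle whether same-numbered arrays share a source. With the number as a block there were 443 calls between genotypes and 17333 for wild-type motor neurons against cord, and the lysosomal counts did not change. Dim probe sets, Ctsl 1457724_at and Ctsb 1444987_at among them, lay near background on some arrays, which limits what they show.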
